A study of Mus musculus with 9 samples.

Results

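The mouse Toll-like receptor genes Tlr1 to Tlr9 and Unc93b1, the gene of the protein that carries the endosomal receptors to their place in the cell, were followed across 9 aortae. These 10 genes were picked by symbol from the 55453 genes listed, and all 10 were among the 19412 genes with enough counts to be tested. Polyadenylated RNA of whole, flash-frozen aortae of C57BL/6J mice was sequenced, 3 mice for each genotype. The Itga8-Cre group has Itga8-CreERT2, an inducible Cre recombinase under the integrin gene Itga8. In Myh11-Cre mice the same inducible enzyme, as Myh11-CreERT2, follows the smooth muscle myosin gene Myh11. Wild Type mice carry neither. The study set the Itga8-CreERT2 mouse beside the established Myh11-CreERT2 mouse, and the labels used here state no sex, age, tamoxifen dosing or batch. Total counts ran from 31419238 to 42497543 per library. Levels are in CPM, counts scaled to the size of each library, and a log2 fold change of 1 is a doubling.

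Toll-like receptors are sentinels of innate immunity that recognise molecules of microbes or of damaged cells. Those on the cell surface mostly bind bacterial products, and those in endosomes bind nucleic acids and need Unc93b1 to leave the endoplasmic reticulum. Most of them signal through the adaptor Myd88 to NF-kappaB and interferon regulatory factors. In the vessel wall they are known from macrophages, endothelial cells, fibroblasts and smooth muscle, and in lymphoid tissue from B cells and dendritic cells.

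The aortae held the markers of their label and of other cells. The 5 smooth muscle markers (Acta2, Myh11, Tagln, Cnn1 and Smtn) summed to 1096 to 1415 CPM in the Itga8-Cre mice, 854 to 2265 CPM in the Myh11-Cre mice and 1761 to 3085 CPM in the Wild Type mice. All 14 macrophage markers were present in each library, and their sum ran from 630 to 1156 CPM in the Itga8-Cre mice, 467 to 1143 CPM in the Myh11-Cre mice and 441 to 593 CPM in the Wild Type mice. In the mean log2 level of these markers, Itga8-Cre 1, Itga8-Cre 2 and Myh11-Cre 2 stood above the 6 other libraries. The 4 B cell markers summed to 107 to 270 CPM in the Itga8-Cre mice, 61.9 to 140 CPM in the Myh11-Cre mice and 68.6 to 150 CPM in the Wild Type mice. Lymphocyte precursor markers also differed widely, since Rag1, which cuts antigen receptor genes, was lowest in Itga8-Cre 2 with 0.443 CPM and highest in Itga8-Cre 3 with 477 CPM. Because whole tissue was measured, more cells of a type and more RNA per cell cannot be told apart in any of the differences below.

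Per kilobase of exon, Tlr4 had the highest mean level of the 9 receptor genes in Wild Type aortae, at 4.16 ± 0.554 CPM per kb (SD, n = 3). Tlr1 followed at 2.59 ± 0.515, Tlr3 at 1.98 ± 0.343, Tlr9 at 1.77 ± 0.392, Tlr2 at 1.57 ± 0.239, Tlr7 at 1.53 ± 0.18, Tlr5 at 1.37 ± 0.0718, Tlr8 at 0.784 ± 0.0307 and Tlr6 at 0.447 ± 0.11 CPM per kb. The ranges of neighbours in this order were apart for Tlr4 and Tlr1, for Tlr5 and Tlr8, and for Tlr8 and Tlr6, and overlapped for the others. In Myh11-Cre the order was headed by Tlr4 at 4.21 ± 0.79 and Tlr7 at 3.71 ± 0.767 CPM per kb, whose ranges overlapped, while Tlr7 lay wholly above the third gene, Tlr1. In Itga8-Cre it was headed by Tlr1 at 3.96 ± 1.64 and Tlr4 at 3.71 ± 0.43 CPM per kb, again with overlapping ranges. Tlr6 was last in all 3 genotypes. Unc93b1 had more transcript per kilobase than any of the receptors, at 22.2 ± 4.5 CPM per kb for Itga8-Cre, 16.2 ± 0.752 for Myh11-Cre and 15.8 ± 1.82 for Wild Type.

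**Figure D1:**
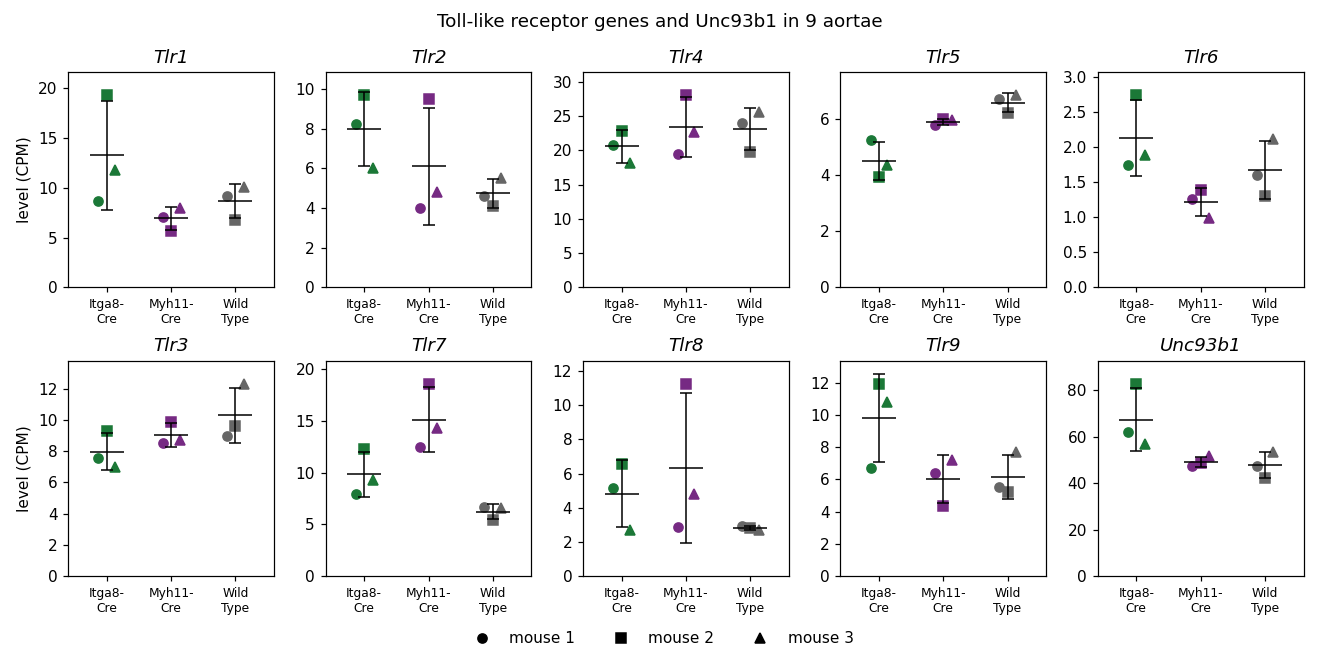
Level in CPM (vertical axes, from 0, each gene on its own scale) of the 10 genes in Itga8-Cre, Myh11-Cre and Wild Type aortae. Each symbol is 1 mouse, and the horizontal line and bars are the mean and SD of 3 mice. Tlr7 stands at 12.5 to 18.6 CPM in the Myh11-Cre mice, 7.92 to 12.3 CPM in the Itga8-Cre mice and 5.39 to 6.72 CPM in the Wild Type mice, with no overlap between the 3 groups.

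Tlr7, the endosomal receptor of single-stranded RNA, had the largest log2 fold change of the 10 genes in Myh11-Cre against Wild Type, though not in the other comparisons. The gene (ENSMUSG00000044583.13) lies on chromosome X, 167304929 to 167330558, minus strand, GRCm38. Its level was 12.5, 18.6 and 14.3 CPM in the Myh11-Cre aortae, against 6.72, 5.39 and 6.61 CPM in the Wild Type aortae. Itga8-Cre aortae had 7.92, 12.3 and 9.32 CPM, also above every Wild Type aorta. All Myh11-Cre values were above all Itga8-Cre values, so the genotypes formed 3 groups without overlap. That order of the 3 groups, chosen after its values were seen, was met by 25 of 19412 genes, or 0.129%.

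In Myh11-Cre aortae Tlr7 averaged 15.2 ± 3.13 CPM and in Wild Type aortae 6.24 ± 0.736 CPM (SD, n = 3 each), so that the Myh11-Cre mean was 2.43 times the Wild Type mean. The log2 fold change was 1.28 (SE 0.21), with an adjusted p of 0.218 by edgeR's quasi-likelihood test over all genes tested. For the same counts the adjusted p was 2.98e-05 by DESeq2 and 0.227 by limma voom. In Itga8-Cre aortae the mean was 9.83 ± 2.21 CPM, 1.58-fold that of Wild Type, with a log2 fold change of 0.66 (SE 0.21, edgeR adjusted p = 0.699). Between the Cre lines, Tlr7 was lower in Itga8-Cre than in Myh11-Cre by a log2 fold change of -0.62 (SE 0.21, edgeR adjusted p = 0.521). The comparisons of both Cre lines use the same 3 Wild Type libraries. Over all 9 libraries, the genes whose level was most like that of Tlr7 were Sfr1 (r = 0.98), a DNA repair factor, Nudt4 (0.958), a diphosphoinositol phosphatase, and Akr1b3 (0.954), an aldose reductase.

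Tlr7 is known from macrophages, plasmacytoid dendritic cells and B cells, so its level was also set against macrophage markers of the same library. The log2 ratio of Tlr7 to the mean of the 14 markers was -0.51, -0.80 and -0.59 in Myh11-Cre aortae, against -1.61, -1.64 and -1.61 in Wild Type aortae. Itga8-Cre aortae had ratios of -1.85, -1.32 and -1.09, on both sides of the Wild Type values. The ratio was 0.99 higher in Myh11-Cre than in Wild Type on the log2 scale, more than the spread between mice, and the two-sided exact permutation test gave p = 0.1, as low as 3 against 3 mice can go. A ratio with no overlap and higher in Myh11-Cre was found for 2.53% of all genes tested. In Itga8-Cre the ratio was 0.20 higher than in Wild Type, with overlapping groups (exact permutation p = 0.4), and 0.79 lower than in Myh11-Cre (difference -0.79, exact permutation p = 0.1). Adjusted over these 3 comparisons, the exact permutation p-values were 0.15 for Myh11-Cre against Wild Type, 0.4 for Itga8-Cre against Wild Type and 0.15 for Itga8-Cre against Myh11-Cre. This adjustment covers Tlr7 alone, which was picked with earlier results of these data known, and not the ratios of the other members. Of the 4 plasmacytoid dendritic cell markers, Cox6a2 and Ccr9 made up most of the summed level. Cox6a2 is also a skeletal muscle gene and Ccr9 also a thymocyte gene, and markers of both tissues varied widely, so the sum is not given as a measure of these cells. Siglech, a lectin that marks these cells, was at 2.85, 4.04 and 4.90 CPM in the Myh11-Cre mice and 3.69, 9.16 and 7.70 CPM in the Itga8-Cre mice, against 9.50, 3.07 and 7.37 CPM in the Wild Type mice. The groups overlapped, and the part of these cells in the Tlr7 values was not tested. The 4 skeletal muscle markers summed to 66.6, 4769 and 7314 CPM in the Myh11-Cre mice, 86.4, 905 and 3064 CPM in the Itga8-Cre mice, and 345, 629 and 724 CPM in the Wild Type mice.

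Tlr8, next to Tlr7 on the same strand (ENSMUSG00000040522.5, chromosome X, 167242696 to 167264329), varied widely among the mice of each Cre line. Its human counterpart also binds single-stranded RNA. Myh11-Cre aortae had 2.87, 11.3 and 4.82 CPM, Itga8-Cre aortae 5.18, 6.58 and 2.71 CPM, and Wild Type aortae 2.93, 2.80 and 2.71 CPM. Wild Type mice thus lay within a narrow band, and 1 mouse of each Cre line lay in or at the edge of that band. The log2 fold change was 1.17 in Myh11-Cre (SE 0.49, edgeR adjusted p = 0.291) and 0.78 in Itga8-Cre (SE 0.49, edgeR adjusted p = 0.712) against Wild Type. Myh11-Cre 2, the library with the most Tlr8, also had the highest mean log2 level of the macrophage markers, and without it the log2 fold change in Myh11-Cre was 0.46. That in Itga8-Cre was 0.47 without Itga8-Cre 2. Its nearest genes by pattern were Sdc1 (r = 0.973), a syndecan, Egfr (0.959), the epidermal growth factor receptor, and Lgals3 (0.956), a galectin abundant in macrophages.

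The genes around Tlr7 were described as well, because Tlr7 and Tlr8 are 40.6 kb apart on chromosome X. Of 13 other genes tested from Gpm6b to Mid1, edgeR called 0 in Myh11-Cre against Wild Type at an adjusted p of 0.05, as for all genes (0%). At an unadjusted p under 0.05 it gave 3 higher and 1 lower, where 6.93% of all genes were higher and 9.48% lower. Limma voom called 0 and DESeq2 called 3, against 4.44% of all genes called by DESeq2. The 3 were Prps2, which makes a precursor of nucleotides, Arhgap6, a GTPase-activating protein, and Hccs, which attaches haem to cytochrome c. Prps2, with its start 52.2 kb from that of Tlr7, had 63.1, 54.4 and 38.8 CPM in the Myh11-Cre mice, against 22.5, 26.7 and 27.2 CPM in the Wild Type mice. Its log2 fold change was 1.03 (SE 0.32, DESeq2 adjusted p = 0.0435). Itga8-Cre mice had 18.7, 30.0 and 48.0 CPM of Prps2, the last within the Myh11-Cre range. The 3 libraries with the most Prps2 (Myh11-Cre 1, Myh11-Cre 2 and Itga8-Cre 3) were also the richest in Rag1, at 274, 233 and 477 CPM. The part of lymphocyte precursors in the Prps2 values was not tested. Hccs, 1989.8 kb away, had 89.3, 67.8 and 81.1 CPM in the Myh11-Cre mice, against 31.6, 27.2 and 29.6 CPM in the Wild Type mice, a log2 fold change of 1.43 (SE 0.16, DESeq2 adjusted p = 1.72e-09). Arhgap6 (0.83, SE 0.19, DESeq2 adjusted p = 0.00603) shares 1335 exon bases with Hccs on the opposite strand, so reads of the pair may be mixed. Other genes of the stretch had lower values. Tmsb4x, on the far side of Tlr8, had a log2 fold change of 0.03 (SE 0.22), Msl3 one of 0.10 (SE 0.09) and Frmpd4 one of -1.35 (SE 0.59). In Itga8-Cre against Wild Type, the log2 fold changes of Prps2, Arhgap6 and Hccs were 0.34, 0.02 and 0.20.

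**Figure D2:**
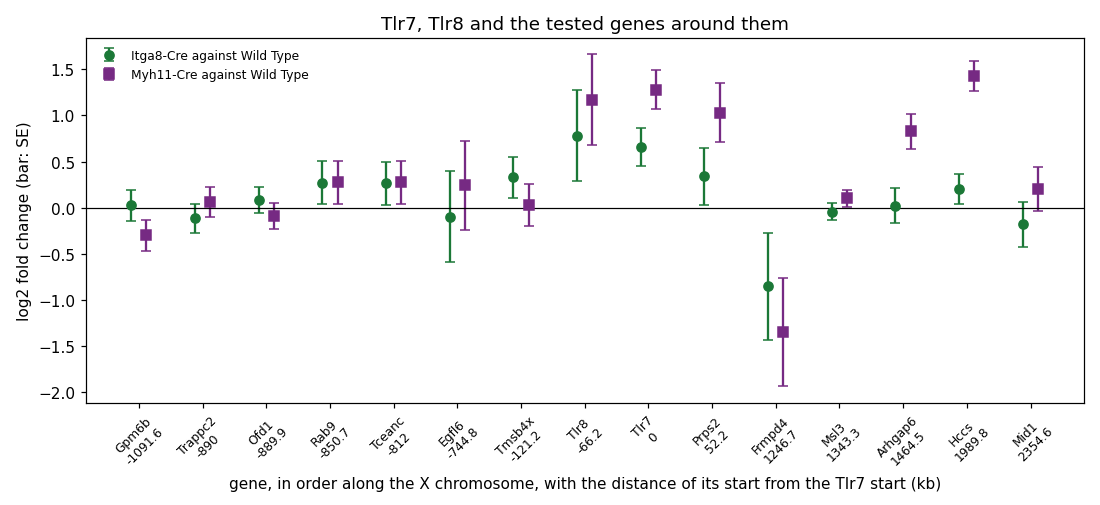
Log2 fold change against Wild Type (vertical axis, bars are SE) of Tlr7, Tlr8 and the tested genes around them in Itga8-Cre (circles) and Myh11-Cre (squares). Genes are in order along chromosome X with the distance of their start from the Tlr7 start in kb, not to scale. In Myh11-Cre, Tlr8, Tlr7, Prps2, Arhgap6 and Hccs lie between 0.83 and 1.43, while Tmsb4x and Msl3, among the same genes, are at 0.03 and 0.10.

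Tlr9, the endosomal receptor of unmethylated CpG DNA (ENSMUSG00000045322.10, chromosome 9, 106222598 to 106226883), went with B cell markers. It had 6.72, 11.9 and 10.8 CPM in the Itga8-Cre mice, 6.43, 4.35 and 7.24 CPM in the Myh11-Cre mice, and 5.50, 5.21 and 7.70 CPM in the Wild Type mice. Itga8-Cre 2 and 3 were above every library of the other genotypes, and Itga8-Cre 1 was not. Its log2 fold change was 0.68 in Itga8-Cre (SE 0.28, edgeR adjusted p = 0.699) and -0.03 in Myh11-Cre (SE 0.28, edgeR adjusted p = 0.961) against Wild Type. Across the 9 libraries, Pearson's r of Tlr9 with the mean log2 level of the B cell markers was 0.947 (Spearman's coefficient 0.95), and 0.863 without the 2 libraries at the ends of that scale. The libraries share 3 genotypes and the same scaling, so r is given as a description only. Of 15418 genes with a mean of at least 1 CPM, 0.318% had an r with these markers as high as that of Tlr9. The genes most like Tlr9 were Cr2 (r = 0.987), a complement receptor of B cells and follicular dendritic cells, Ighd (0.983), the heavy chain of IgD, and Fcrl1 (0.982), an Fc receptor-like protein of B cells.

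Tlr1, a surface receptor that binds bacterial lipopeptides together with Tlr2, had a pattern close to that of Tlr9. The gene (ENSMUSG00000044827.10) lies on chromosome 5, 64924679 to 64933563. Its level was 8.66, 19.3 and 11.8 CPM in the Itga8-Cre mice, 7.11, 5.69 and 7.97 CPM in the Myh11-Cre mice, and 9.18, 6.74 and 10.1 CPM in the Wild Type mice. Every Itga8-Cre aorta was above every Myh11-Cre aorta, whereas Itga8-Cre and Wild Type overlapped. The log2 fold change was 0.61 in Itga8-Cre against Wild Type (SE 0.29, edgeR adjusted p = 0.699) and 0.94 in Itga8-Cre against Myh11-Cre (SE 0.30, edgeR adjusted p = 0.521). Without Itga8-Cre 2 these values were 0.24 and 0.56. Pearson's r of Tlr1 over the 9 libraries was 0.902 with Tlr9 and 0.893 with the B cell markers (Spearman's coefficient 0.833), the last of which was 0.693 without the 2 end libraries. Cd180 and Ly86, which form a receptor complex of B cells related to that of Tlr4, had r values of 0.868 and 0.946 with the same markers. Closest to Tlr1 by pattern were Haao (r = 0.986), an enzyme of tryptophan breakdown, Dok3 (0.984), an adaptor of immune cells, and Mndal (0.982), an interferon-inducible protein.

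Tlr6, the other partner of Tlr2, lies 18.5 kb from Tlr1 (ENSMUSG00000051498.6, chromosome 5, 64952031 to 64960097) and is its close paralogue. It had 1.74, 2.74 and 1.89 CPM in the Itga8-Cre mice, 1.26, 1.39 and 0.990 CPM in the Myh11-Cre mice, and 1.59, 1.30 and 2.11 CPM in the Wild Type mice. As for Tlr1, Itga8-Cre was wholly above Myh11-Cre, with a log2 fold change of 0.81 (SE 0.28, edgeR adjusted p = 0.521), and overlapped with Wild Type. The r between Tlr1 and Tlr6 over the 9 libraries was 0.822, and the genes nearest to Tlr6 by pattern were Zfp712 (r = 0.965), Slc2a6 (0.948) and Amz1 (0.939). The sources used here do not say how reads matching both paralogues were counted, so their values may not be fully separate, and Tlr6 rests on 38 to 99 counts per library.

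Tlr2, which pairs with Tlr1 or Tlr6 (ENSMUSG00000027995.10, chromosome 3, 83836272 to 83841767), had its highest levels in the 3 libraries that stood apart in macrophage markers. It had 8.23, 9.71 and 6.02 CPM in the Itga8-Cre mice, 4.02, 9.48 and 4.79 CPM in the Myh11-Cre mice, and 4.61, 4.10 and 5.52 CPM in the Wild Type mice. All Itga8-Cre aortae were above all Wild Type aortae, with a log2 fold change of 0.75 (SE 0.33, edgeR adjusted p = 0.699). The only Myh11-Cre aorta outside the Wild Type range on the high side was Myh11-Cre 2. These libraries (Itga8-Cre 2, Myh11-Cre 2 and Itga8-Cre 1) were also those with the most Tlr8. Because these 3 libraries form a cluster of their own, r was taken within the 6 others, where it was 0.616 for Tlr2 and 0.532 for Tlr8 with the macrophage markers, beside 0.704 for Unc93b1, 0.601 for Tlr1 and 0.561 for Tlr4. Within those 6 libraries the relation was thus not particular to Tlr2 and Tlr8. Over all 9 libraries, with the cluster included, r was 0.953 for Tlr2 and 0.908 for Tlr8. It was 0.626 for Unc93b1, 0.537 for Tlr4 and 0.227 for Tlr1. Of 15418 genes with a mean of at least 1 CPM, 0.156% had an r as high as that of Tlr2. The share for Tlr8 was 0.506%. The log2 ratio of Tlr2 to the macrophage markers was 0.29 higher in Itga8-Cre than in Wild Type without overlap, against 0.417% of all genes tested. Its nearest genes by pattern were Msr1 (r = 0.985), the macrophage scavenger receptor, Ptgir (0.977), the prostacyclin receptor, and Nfam1 (0.974), an activating receptor of leukocytes.

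Of the 10 genes, 7 had an entry in the RefSeq promoter table. Shown are Tlr1 and Tlr9, the pair of the 10 genes with the highest r, and Tlr2 and Tlr8 (r = 0.805), whose highest levels were in the same 3 libraries. The windows are given 5′ to 3′ as the 250 bases before the RefSeq start on GRCm38.p6, with motif matches in capitals.
Tlr1 promoter, chr5:64933559-64933808, minus strand: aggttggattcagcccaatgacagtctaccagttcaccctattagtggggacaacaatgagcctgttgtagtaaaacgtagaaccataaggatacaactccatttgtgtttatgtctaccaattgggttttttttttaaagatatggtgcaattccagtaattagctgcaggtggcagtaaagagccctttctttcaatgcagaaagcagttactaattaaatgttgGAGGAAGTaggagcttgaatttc
Tlr9 promoter, chr9:106222348-106222597, plus strand: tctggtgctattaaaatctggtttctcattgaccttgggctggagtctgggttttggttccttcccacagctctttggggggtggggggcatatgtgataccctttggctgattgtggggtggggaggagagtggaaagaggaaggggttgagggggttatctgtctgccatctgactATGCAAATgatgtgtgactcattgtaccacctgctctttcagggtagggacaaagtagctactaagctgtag
Tlr2 promoter, chr3:83841609-83841858, minus strand: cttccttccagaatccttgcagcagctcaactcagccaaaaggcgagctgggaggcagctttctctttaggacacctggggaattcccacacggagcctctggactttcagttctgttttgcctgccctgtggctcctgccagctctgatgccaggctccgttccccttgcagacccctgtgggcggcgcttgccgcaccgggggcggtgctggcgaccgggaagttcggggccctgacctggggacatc
Tlr8 promoter, chrX:167264330-167264579, minus strand: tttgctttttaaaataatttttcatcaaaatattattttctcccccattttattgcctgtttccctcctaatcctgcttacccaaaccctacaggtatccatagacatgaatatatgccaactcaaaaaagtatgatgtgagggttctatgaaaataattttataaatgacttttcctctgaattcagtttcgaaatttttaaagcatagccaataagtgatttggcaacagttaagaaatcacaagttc
The motifs searched on both strands were GAGGAAGT, bound by the myeloid and B cell factor PU.1, ATGCAAAT, the octamer bound by POU factors, an NF-kappaB site (GGGA and TTCC with 2 free bases between), and an interferon response site (GAAA and GAAA with 2 free bases between). The Tlr1 window above held GAGGAAGT ending 15 bases before the start, and that of the other RefSeq start of Tlr1 held none of the motifs. Tlr9 held ATGCAAAT ending 64 bases before its start, and the windows of Tlr2 and Tlr8 held none of these exact patterns. Tlr6 held the interferon response site at 1 of its starts, Tlr3 held the NF-kappaB site, and Tlr5 held none. Among 32851 promoter windows of the same length, 2.44% held GAGGAAGT, 1.6% ATGCAAAT, 1.21% the NF-kappaB site and 2.98% the interferon response site. A match is a description of the letters and does not show binding. Other forms of these sites were not searched, so a window without a match may still hold one.

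**Figure D3:**
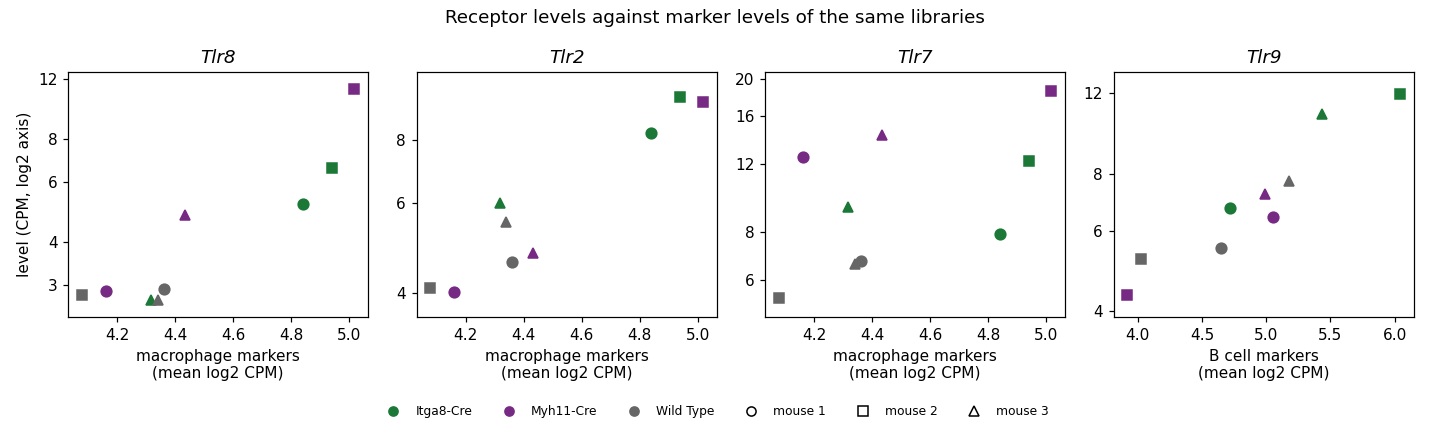
Level of Tlr8, Tlr2, Tlr7 and Tlr9 (vertical axes, CPM on a log2 axis) against the mean log2 CPM of 14 macrophage markers or, for Tlr9, of 4 B cell markers (horizontal axes). Each point is 1 mouse, with colour for genotype and shape for mouse number. Itga8-Cre 1, Itga8-Cre 2 and Myh11-Cre 2 are at the right in the macrophage panels and have the most Tlr2 and Tlr8, while for Tlr7 all 3 Myh11-Cre mice lie above every Wild Type mouse.

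Tlr4, the receptor of lipopolysaccharide (ENSMUSG00000039005.13, chromosome 4, 66827584 to 66930284), overlapped between the 3 genotypes. It had 20.8, 22.9 and 18.1 CPM in the Itga8-Cre mice, 19.4, 28.1 and 22.7 CPM in the Myh11-Cre mice, and 24.0, 19.7 and 25.7 CPM in the Wild Type mice. The log2 fold change was -0.17 in Itga8-Cre (95% interval -0.54 to 0.21) and 0.02 in Myh11-Cre (-0.35 to 0.39) against Wild Type. The 14 macrophage markers had median log2 fold changes of 0.42 in Itga8-Cre and 0.35 in Myh11-Cre against Wild Type. Set against them, the log2 ratio of Tlr4 was lower than in Wild Type without overlap in either Cre line, with differences of -0.60 for Itga8-Cre and -0.27 for Myh11-Cre. Such lower ratios were common, at 28.1% of all genes for Itga8-Cre and 14.1% for Myh11-Cre. The nearest genes by pattern were Arpin (r = 0.933), an inhibitor of the Arp complex, and the endothelial genes Mmrn2 (0.929) and Angpt2 (0.924).

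Tlr5, the receptor of flagellin (ENSMUSG00000079164.8, chromosome 1, 182954788 to 182976044), had its lowest levels in Itga8-Cre. It had 5.23, 3.93 and 4.34 CPM in the Itga8-Cre mice, 5.77, 5.98 and 5.94 CPM in the Myh11-Cre mice, and 6.69, 6.19 and 6.84 CPM in the Wild Type mice. The 3 genotypes did not overlap. Against Wild Type, 5.37% of all genes were lower without overlap in Itga8-Cre and 14.7% in Myh11-Cre. In Itga8-Cre against Myh11-Cre the share was 3.07%. How many genes have this order of all 3 groups was not counted. For Tlr5 the SD between the Myh11-Cre mice was 0.109 CPM. In Itga8-Cre the log2 fold change against Wild Type was -0.55 (SE 0.15, edgeR adjusted p = 0.699, DESeq2 adjusted p = 0.184). In Myh11-Cre it was -0.16 (SE 0.15, edgeR adjusted p = 0.607), and in Itga8-Cre against Myh11-Cre it was -0.39 (SE 0.15, edgeR adjusted p = 0.521). Smooth muscle markers also summed to less in Itga8-Cre than in Wild Type (1096 to 1415 against 1761 to 3085 CPM). The lowest sum of all was in Myh11-Cre 1, at 854 CPM, where Tlr5 was at 5.77 CPM, above every Itga8-Cre aorta. Over the 9 libraries, Pearson's r of Tlr5 was 0.449 with the mean log2 level of the smooth muscle markers and -0.658 with that of the B cell markers. With Unc93b1 it was -0.798. The part of these cells in the Tlr5 values was not tested. Tlr5 was nearest by pattern to Lhpp (r = 0.938), a phosphatase, Esr1 (0.938), the oestrogen receptor alpha, and Hnmt (0.937), which inactivates histamine.

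Tlr3, the endosomal receptor of double-stranded RNA (ENSMUSG00000031639.12, chromosome 8, 45395665 to 45411080), was the only endosomal receptor among the members whose mean lay below that of Wild Type in both Cre lines. It had 7.58, 9.29 and 7.02 CPM in the Itga8-Cre mice, 8.51, 9.89 and 8.72 CPM in the Myh11-Cre mice, and 8.98, 9.60 and 12.3 CPM in the Wild Type mice. The groups overlapped in every comparison. Against Wild Type its log2 fold change was -0.37 in Itga8-Cre (SE 0.17, edgeR adjusted p = 0.699) and -0.19 in Myh11-Cre (SE 0.17, edgeR adjusted p = 0.576). Tlr3 shares 381 of its 5207 exon bases with Gm45542 on the opposite strand, so reads there may belong to either if strand was not used in counting. Its r with Tlr4 over the 9 libraries was 0.703, the highest for Tlr3 among the other 9 genes. Zmat1 (r = 0.894) and Cachd1 (0.882) were near to it by pattern.

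Unc93b1, the carrier of the endosomal receptors (ENSMUSG00000036908.17, chromosome 19, 3935186 to 3949340), was higher in each Itga8-Cre aorta than in any other. It had 62.2, 82.8 and 57.0 CPM in the Itga8-Cre mice, 47.3, 48.6 and 51.7 CPM in the Myh11-Cre mice, and 47.4, 42.4 and 53.4 CPM in the Wild Type mice. Against Wild Type the log2 fold change was 0.50 in Itga8-Cre (SE 0.15, edgeR adjusted p = 0.699) and 0.04 in Myh11-Cre (SE 0.15, edgeR adjusted p = 0.899). Against Myh11-Cre it was 0.45 in Itga8-Cre (SE 0.15, edgeR adjusted p = 0.521). Without Itga8-Cre 2 the Itga8-Cre values were 0.31 against Wild Type and 0.27 against Myh11-Cre. Its r with Tlr7 over the 9 libraries was 0.218, beside 0.858 with Tlr1 and 0.786 with Tlr9. Set against macrophage markers, its log2 ratio overlapped between the genotypes in all 3 comparisons. Its nearest genes by pattern were Cotl1 (r = 0.971), an actin-binding protein, Slfn8 (0.969), a Schlafen protein, and Dnase2a (0.969), the lysosomal DNase.

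Counted over the 10 genes, edgeR called 0 of 10 in Itga8-Cre against Wild Type, 0 of 10 in Myh11-Cre against Wild Type and 0 of 10 in Itga8-Cre against Myh11-Cre, as for all genes (0% called in each), and limma voom called 0 as well. DESeq2 called 0, 1 (Tlr7) and 0 of 10, against 0.166%, 4.44% and 0.109% of all genes in the same order of comparisons. At an unadjusted p under 0.05, edgeR gave 3 of 10 higher and 1 of 10 lower in Itga8-Cre against Wild Type, where 6.78% of all genes passed, 3.97% higher and 2.81% lower. For Myh11-Cre against Wild Type it gave 2 higher and 0 lower, against 6.93% and 9.48% of all genes, 16.4% in all. For Itga8-Cre against Myh11-Cre it gave 4 higher (Tlr1, Tlr6, Tlr9 and Unc93b1) and 2 lower (Tlr5 and Tlr7), against 7.64% and 1.83%, 9.48% in all. Without overlap between groups, Tlr2, Tlr7 and Unc93b1 were higher and Tlr5 lower in Itga8-Cre aortae than in Wild Type aortae, against 5.76% and 5.37% of all genes. In Myh11-Cre, Tlr7 was higher and Tlr5 lower than in Wild Type without overlap, against 11.3% and 14.7%. Between the Cre lines, Tlr1, Tlr6 and Unc93b1 were higher and Tlr5 and Tlr7 lower in Itga8-Cre without overlap, against 9.65% and 3.07%. The median log2 fold change of the 10 genes was 0.56 in Itga8-Cre and -0.01 in Myh11-Cre against Wild Type, where all genes had 0.04 and 0.01. The log2 ratio to macrophage markers was separate and higher for 1 gene (Tlr2) and lower for 3 (Tlr3, Tlr4 and Tlr5) in Itga8-Cre against Wild Type, where 0.417% of all genes were higher and 28.1% lower, so the lower count is near that of all genes. In Myh11-Cre against Wild Type it was higher for 1 (Tlr7) and lower for 4 (Tlr1, Tlr4, Tlr5 and Tlr6), against 2.53% and 14.1%, and in Itga8-Cre against Myh11-Cre higher for 0 and lower for 1 (Tlr7), where 1.42% of all genes were higher and 1.8% lower. Summed over Tlr3, Tlr7, Tlr8 and Tlr9, the endosomal receptors reached 30.3, 44.1 and 35.1 CPM in the Myh11-Cre mice, against 24.1, 23.0 and 29.4 CPM in the Wild Type mice, and 27.4, 40.1 and 29.8 CPM in the Itga8-Cre mice. Only Tlr7 of these 4 was itself higher in Myh11-Cre than in Wild Type without overlap. Tlr3 and Tlr9 had log2 fold changes below 0 there, so the sum does not show a rise of all 4. The surface receptors (Tlr1, Tlr2, Tlr4, Tlr5 and Tlr6) summed to 37.6 to 50.6 CPM in the Myh11-Cre mice and 38.0 to 50.2 CPM in the Wild Type mice.

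**Figure D4:**
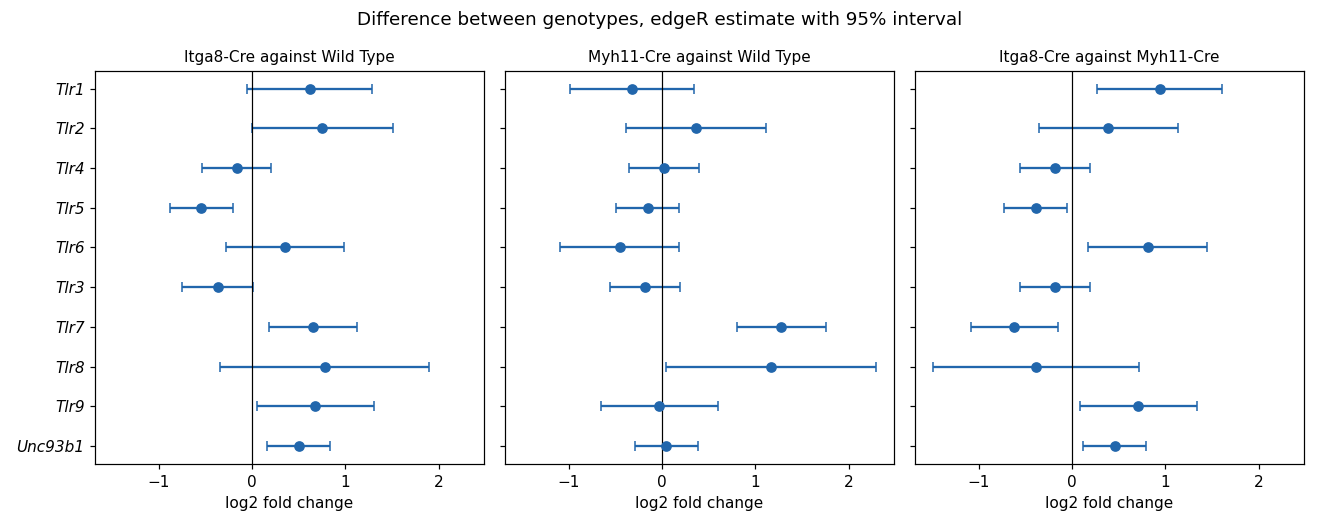
Log2 fold change (horizontal axis) of the 10 genes with 95% intervals from the edgeR fit, not adjusted for the number of genes, for Itga8-Cre against Wild Type, Myh11-Cre against Wild Type and Itga8-Cre against Myh11-Cre. In the middle panel Tlr7 is at 1.28 and Tlr8, with the widest interval, at 1.17, while in the left panel Tlr5 is at -0.55.

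The 3 further mouse receptors, Tlr11, Tlr12 and Tlr13, are absent from the functional human set. Tlr13, which recognises bacterial ribosomal RNA in mouse endosomes, had 10.4, 10.6 and 4.63 CPM in the Itga8-Cre mice, 3.42, 11.1 and 3.57 CPM in the Myh11-Cre mice, and 3.56, 3.25 and 3.88 CPM in the Wild Type mice. Its 3 highest libraries were the same as those of Tlr2 and Tlr8. The log2 fold change of Tlr13 in Itga8-Cre against Wild Type was 1.26 (SE 0.50, edgeR adjusted p = 0.699). Tlr11 and Tlr12, receptors of protozoan profilin in mouse, had means of 1.68 ± 0.45 and 3.94 ± 1.86 CPM in the Itga8-Cre mice, 1.48 ± 0.358 and 2.73 ± 1.03 CPM in the Myh11-Cre mice, and 1.41 ± 0.507 and 2.84 ± 0.309 CPM in the Wild Type mice, with overlap throughout.

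The wider pathway was followed in 48 genes, made up of Tlr11, Tlr12 and Tlr13 with receptor partners, trafficking, adaptors, kinases, transcription factors and inhibitors, and in 20 response genes, of which 65 were tested and Il6, Ifnb1 and Ccl4 had too few counts. EdgeR called 0 of 65 in each comparison and limma voom 0 as well, while DESeq2 called 0, 2 and 0 in Itga8-Cre against Wild Type, Myh11-Cre against Wild Type and Itga8-Cre against Myh11-Cre. At an unadjusted p under 0.05, edgeR gave 11 higher and 0 lower in Itga8-Cre against Wild Type, 4 higher and 2 lower in Myh11-Cre against Wild Type, and 10 higher and 0 lower in Itga8-Cre against Myh11-Cre. The shares of all genes, higher and lower, were 3.97% and 2.81%, 6.93% and 9.48%, and 7.64% and 1.83% in these comparisons. In Myh11-Cre against Wild Type the pathway counts were thus below the shares over all genes, as was the DESeq2 count of 2 of 65 beside 4.44%. The median log2 fold changes were 0.24, 0.06 and 0.18, beside 0.04, 0.01 and 0.01 for all genes.

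Among the adaptors, Myd88 had 18.5 ± 0.491 CPM in the Itga8-Cre mice, 18.1 ± 1.83 CPM in the Myh11-Cre mice and 19.5 ± 1.11 CPM in the Wild Type mice. Sarm1, a relative of these adaptors known for NAD breakdown in axons, was one of the genes called by DESeq2 in Myh11-Cre against Wild Type. It had 1.70, 1.02 and 0.755 CPM in the Myh11-Cre mice, against 2.06, 5.21 and 3.85 CPM in the Wild Type mice, a log2 fold change of -1.68 (SE 0.42, DESeq2 adjusted p = 0.00755, edgeR adjusted p = 0.218). Nfkbiz, a nuclear IkappaB protein induced by these receptors, was the other, at 15.7, 16.4 and 17.2 CPM in the Myh11-Cre mice, against 23.4, 22.3 and 22.1 CPM in the Wild Type mice. Its log2 fold change was -0.46 (SE 0.10, DESeq2 adjusted p = 0.00783, edgeR adjusted p = 0.218). In the same comparison Nfkbia, the NF-kappaB inhibitor, had a log2 fold change of 0.41 and Ctsl, a lysosomal protease, one of 0.40, and neither passed an adjusted p of 0.05 by edgeR (0.218 and 0.252).

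In Itga8-Cre against Wild Type, the pathway genes with the smallest p were Il1a, Irf5, Tnfaip3, Ctss, Cd180 and Tnf, each with an edgeR adjusted p of 0.699. Il1a, an alarm cytokine, had 0.743, 1.19 and 0.826 CPM in the Itga8-Cre mice, 0.575, 0.608 and 0.339 CPM in the Myh11-Cre mice, and 0.232, 0.238 and 0.312 CPM in the Wild Type mice, and neither Cre line overlapped with Wild Type. Higher values without overlap were found for 5.76% of all genes in Itga8-Cre and 11.3% in Myh11-Cre against Wild Type. Il1a rests on 8 to 43 counts per library. Ctss, the cathepsin that processes endosomal receptors, had 136, 180 and 71.9 CPM in the Itga8-Cre mice, against 50.9, 46.8 and 63.6 CPM in the Wild Type mice, highest in Itga8-Cre 1 and 2. Irf5, an interferon regulatory factor downstream of Myd88, had 21.5, 30.8 and 20.9 CPM in the Itga8-Cre mice, against 15.96, 12.9 and 16.8 CPM in the Wild Type mice. The 17 response genes had a median log2 fold change of 0.85 in Itga8-Cre and 0.25 in Myh11-Cre against Wild Type. Among them Saa3, an acute phase protein, had 36.2, 49.7 and 5.99 CPM in the Itga8-Cre mice, 2.65, 34.1 and 0.807 CPM in the Myh11-Cre mice, and 2.93, 10.6 and 0.833 CPM in the Wild Type mice, so it too was highest in the 3 libraries with the most macrophage markers. Cd14, the co-receptor of Tlr4 on macrophages, was highest in the same 3 libraries, at 15.6 and 14.5 CPM in Itga8-Cre 1 and 2 and 18.4 CPM in Myh11-Cre 2. The part of macrophage number in these response gene values was not tested.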

How the data were processed

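RNA of 9 whole aortae, 1 library per mouse, was sequenced as single-end 75 nt reads of TruSeq Stranded mRNA libraries, per the labels' protocols. Every test here used the gene counts the authors deposited. A second deposited table gives signal, the same counts divided by 1 size factor per library, used here only as a check. The genome was GRCm38.p6, and Salmon 0.13.1, DESeq2, STAR 2.7.0f, featureCounts, Subread 1.6.4 and fastp 0.20.0 are named without role or order, per the submitters' processing notes. The sources used here name neither the annotation release nor the strand setting.

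In R 4.3.3, edgeR 4.0.16 kept genes passing filterByExpr (19412 of 55453), computed TMM factors and fitted group means to all 9 libraries with a robust quasi-likelihood model. The F test was adjusted by Benjamini-Hochberg over the genes tested, with a threshold of 0.05. DESeq2 1.42.0 and voom of limma 3.58.1 served as alternatives. CPM used TMM-scaled totals, and lengths and positions came from GENCODE M21, where 19238 of 19412 tested symbols had a single gene. EdgeR's common coefficient of biological variation came to 0.294. The fits were also run on simulated counts with known changes put in, of which edgeR recovered only a part. No value reported here rests on that run.

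The members, gene lists and rules were chosen with earlier results of these data known. Named genes were all 10 members, the 6 pathway or response genes with the smallest p per comparison, the tested neighbours of Tlr7 and the 3 genes of at least 1 CPM most like each member by Pearson's r. Some genes that this rule or the marker lists hold are not reported here. Other genes were named after their values were seen. For single ratios the test was a two-sided exact permutation test. Alternatives were other scaling, filters, tools and subsets of libraries, mouse number as a block and the macrophage markers as a covariate.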

Additional observations from a re-analysis of the deposited data

How the results depend on the processing

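The 10 genes gave 30 log2 fold changes. Outside the fits that left out 1 library, 257 values kept direction and side of the threshold, 12 changed sign and 1 (Tlr7 in Myh11-Cre against Wild Type with DESeq2, 1.30) passed it. With DESeq2 the called members in that comparison numbered 1 and the called pathway genes 2, where edgeR called 0 of each. With the macrophage markers as a covariate, Tlr8 in Itga8-Cre against Wild Type became -0.21, and in Myh11-Cre against Wild Type Tlr2 became -0.0918, Tlr4 -0.16, Tlr9 0.0573 and Unc93b1 -0.038, while Tlr7 stayed at 1.10 (edgeR adjusted p = 0.32). With both libraries richest in Lyz2 within their Cre line left out (Itga8-Cre 2, Myh11-Cre 2), chosen after seeing the data, Tlr2, Tlr4 and Tlr9 in Myh11-Cre against Wild Type were -0.11, -0.14 and 0.15 and Tlr8 in Itga8-Cre against Myh11-Cre was 0.0212. The 3 libraries richest in Rag1 (Itga8-Cre 3, Myh11-Cre 1, Myh11-Cre 2) were also left out, chosen after seeing the data. That fit keeps only 1 Myh11-Cre library, Myh11-Cre 3, so its Myh11-Cre values hold no spread between mice. In it, Tlr4 and Tlr9 in Myh11-Cre against Wild Type were -0.0209 and 0.24 and Tlr8 in Itga8-Cre against Myh11-Cre was 0.28. The cause of these changes of sign was not tested, and none of the values concerned was called by edgeR.

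Leaving out each library in turn gave -0.10 to 0.59 for Tlr2, -0.13 to 0.14 for Tlr4, -0.19 to 0.17 for Tlr9 and -0.0271 to 0.13 for Unc93b1 in Myh11-Cre against Wild Type, and -0.74 to 0.31 for Tlr8 in Itga8-Cre against Myh11-Cre, while the other 25 results kept their sign. Tlr7 in Myh11-Cre against Wild Type ran from 1.11 to 1.40 (edgeR adjusted p 0.0833 to 0.518), and its ratio to macrophage markers from 0.92 to 1.07. That ratio ran from 0.03 to 0.41 in Itga8-Cre against Wild Type and from -0.95 to -0.57 in Itga8-Cre against Myh11-Cre. The main fits left mouse number out, although deviations were positively correlated in all 9 same-numbered pairs (range 0.0411 to 0.389), in 5 of them above 0.1. Pairs of different number had mostly negative correlations, from -0.341 (Itga8-Cre 1 and Myh11-Cre 2) to 0.246 (Itga8-Cre 3 and Myh11-Cre 2). Deviations from a group mean sum to 0 within the group, so positive same-numbered pairs force negative values among the others. The negative signs are thus not a separate observation. Not every library was most like its own number, since Itga8-Cre 3 and Myh11-Cre 3 had 0.209. What mice of the same number may share was not tested. With mouse number as a replicate block, Tlr7 in Myh11-Cre against Wild Type was 1.25 (edgeR adjusted p = 0.193), 0 members were called, and over all genes edgeR called 1 in that comparison, against 0 without the block, and 0 in both others. Tlr6, Il1a and Sarm1 rest on few counts, which limits their precision.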
